A study of Mus musculus with 2 samples.

Results

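The genes described here encode 32 solute carriers, the membrane proteins with which gut epithelium takes up or passes on sugars, peptides, amino acids, organic anions, nucleosides, vitamins, phosphate, sodium, chloride, zinc and copper. The rule lists them by gene name and sets no threshold on a measured value, although the list was drawn up with earlier results of these data known, and all 32 were found among the 32285 genes of both count tables. Another 358 genes with a solute carrier symbol (Slc) were left as the comparison.

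Sorted epithelial cells of mouse intestine were profiled in 2 single-cell RNA-seq libraries, 1 of wild type mice (WT) and 1 of animals that overexpress MG53 (also named TRIM72, gene Trim72) throughout the body (MG53-TG). Both groups had received 2.5% dextran sulfate sodium (DSS), which damages intestinal epithelium, and were sampled on day 7, so that no uninjured gut is part of the comparison. The animals' age is not given in the labels, the WT mice were littermates per the study, and the number of animals pooled per library is absent from the labels. The study describes several mice per group for this experiment, and values of single mice were not analysed here. Crypt cells that bound an EpCAM antibody and excluded the dye 7-AAD were captured with a 10x 3′ kit. With 1 library per group there was no replicate and no test between the genotypes, and cells of 1 library are not replicates. All intervals below are 95% intervals of counting error alone.

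In the small intestine, absorption is divided between the faces of the enterocyte. Carriers of the brush border, many of them driven by the sodium or proton gradient, bring nutrients in from the lumen, and carriers of the basolateral face release them toward the blood. Enterocytes are born in the crypt and acquire these carriers as they climb the villus, and the set they make differs between the proximal and the distal gut.

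A barcode was kept with at least 1354 unique molecular identifiers (UMIs), 200 or more genes and a mitochondrial share of UMIs up to 25%, which together with removal of likely doublets left 6963 WT and 4941 MG53-TG cells. The files held 46 barcode sequences common to both libraries at 500 UMIs or more. Cells were clustered without any solute carrier gene and without Trim72, and clusters were named from marker genes. The epithelial classes held 6119 WT and 4606 MG53-TG cells: stem-like (1061 and 509), early absorptive-like (812 and 304), enterocyte-like (909 and 638), ileal enterocyte-like (688 and 465) and secretory-like (2649 and 2690). Trim72 stood at 0.594 CPM (a gene's share of the summed UMIs, on the customary CPM scale) in WT and 50.8 CPM in epithelial cells of MG53-TG. The study names the sorted cells as negative for CD45, a protein of leukocytes, yet 576 WT and 229 MG53-TG cells were T cell-like. Cluster 15 (222 and 88 cells), led by Xcl1, Ms4a4b and Cd8b1 and shallow, was left unnamed and is not in that count, although all 10 T cell markers counted in it. The mitochondrial limit removed 33.7% of WT and 46.1% of MG53-TG barcodes past the other filters. Median depth of the kept cells was 14035 UMIs (WT) and 17950 UMIs (MG53-TG). Among the epithelial classes it was lowest, at 4068 and 6480, in the ileal enterocyte-like class.

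Of the ileal enterocyte-like clusters, cluster 5 was led by distal genes, whereas cluster 16 carried proximal genes too. A list of 14 proximal enterocyte genes summed to 14020 CPM in WT against 13427 CPM in MG53-TG in cluster 16, and to 5507 and 6669 CPM in cluster 5. The 14 distal genes summed to 7179 and 7063 CPM in cluster 16, and to 16286 and 12906 CPM in cluster 5. Since cluster 16 held both sets of genes, its name ileal is only partly borne out. Cluster 5 made up 335 of the 688 WT and 167 of the 465 MG53-TG cells of the class, so a class value combines these clusters in different proportions in the libraries, and values by cluster are given for several carriers. The enterocyte-like class is likewise a mix, with 533 of 909 cells from cluster 7 in WT, 442 of 638 in MG53-TG, and the others from cluster 17.

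Levels of the carriers followed the absorptive lineage in both libraries. The highest class was ileal enterocyte-like for 24 of the 32 members, enterocyte-like for 5, and stem-like, early absorptive-like and secretory-like for 1 each, and the class was the same in WT and MG53-TG for each of them. Of 9124 genes at a mean of 5 CPM or more over the 5 classes, 28.9% were highest in the ileal enterocyte-like class in both libraries, 4.59% in the enterocyte-like, 32% in the stem-like, 5.8% in the early absorptive-like and 12.2% in the secretory-like class. Between enterocyte-like and stem-like cells, 24 members were higher in the former in both libraries with an interval of the ratio above 1, and 3 (Slc1a1, Slc16a1 and Slc23a4) were lower. Among 8902 genes at a mean of 5 CPM or more over both classes, 27.9% were higher in this way and 49.2% were lower. The order is a description of 3′ UMI counts as shares of all UMIs, and UMIs per cell can give another order. Slc7a9 had 2.58 UMIs per cell in WT and 3.25 in MG53-TG enterocyte-like cells, against 1.52 and 2.44 in ileal enterocyte-like cells. Slc5a1 kept its order, with 10.3 and 16.3 against 12.2 and 24.8 UMIs per cell. Levels are compared for 1 gene between cells, not between genes.

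**Figure D1:**
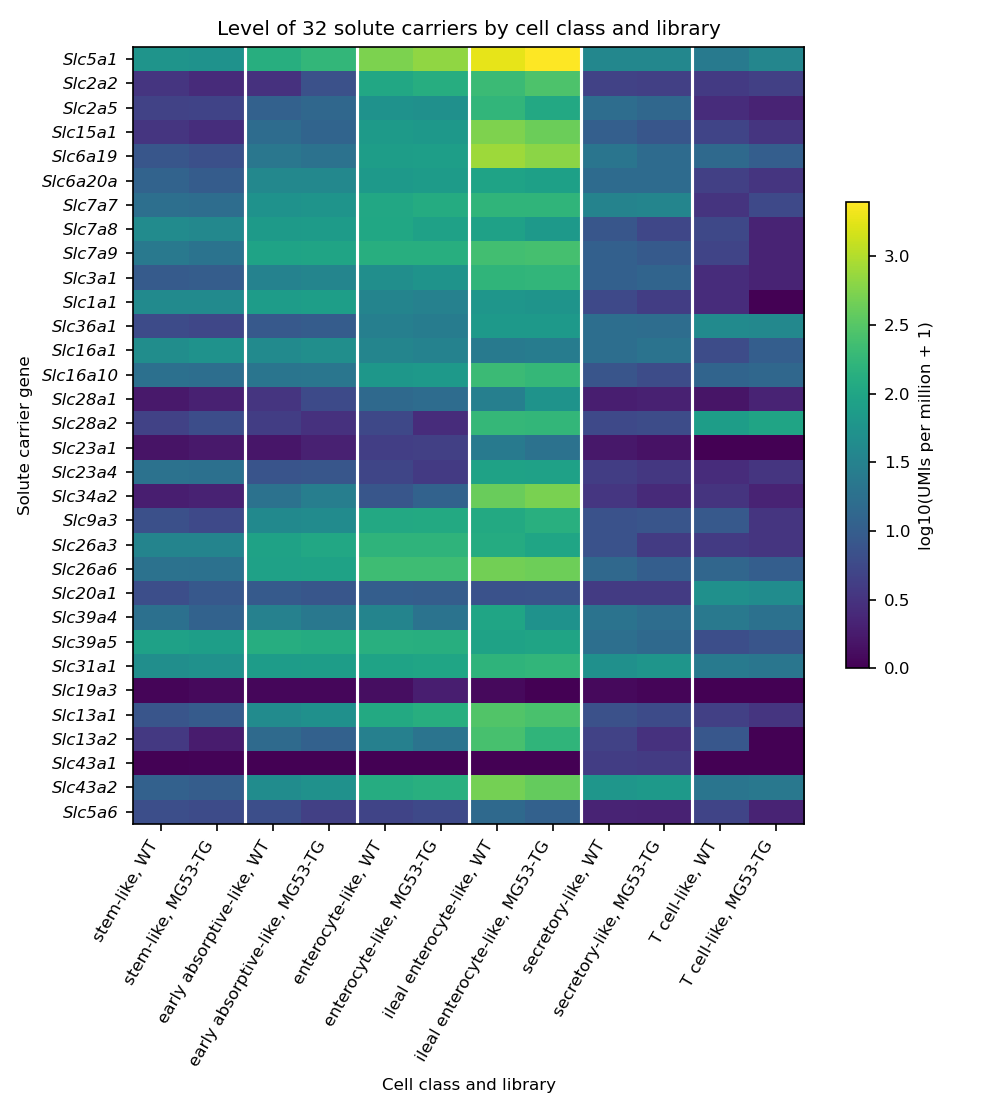
Heat map of the level of each of the 32 carriers (rows) in 5 epithelial classes and in T cell-like cells, with the WT and MG53-TG libraries side by side; the color is log10 of CPM plus 1. Most rows are brightest in the ileal enterocyte-like columns and the paired columns of the 2 libraries look alike, while Slc28a2, Slc20a1 and Slc36a1 are also bright in T cell-like cells.

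Sugar carriers had their highest class level in the ileal enterocyte-like class, where most UMIs of each came from cluster 16, the cluster with proximal genes. The cluster 5 level was 0.0907 (WT) and 0.0837 (MG53-TG) times the cluster 16 level for Slc2a2, 0.423 and 0.294 times for Slc2a5, and 0.968 and 0.673 times for Slc5a1. Slc5a1, the sodium-driven glucose and galactose carrier of the brush border, went from 55.2 CPM in WT against 52.5 CPM in MG53-TG stem-like cells to 530 and 673 CPM in enterocyte-like cells and 1861 and 2466 CPM in ileal enterocyte-like cells. In the last class MG53-TG exceeded WT by a log2 ratio of 0.41 (interval 0.37 to 0.45), outside counting error but under the fold of 0.5 on the log2 scale used for a call. By cluster, Slc5a1 had 1821 CPM in WT against 1769 CPM in MG53-TG in cluster 5, where the interval of the ratio included 0. In cluster 16 it had 1880 and 2629 CPM. Slc2a2, which lets glucose and fructose out at the basolateral face, was near absent from stem-like cells (2.36 and 1.64 CPM) and reached 202 CPM in WT against 277 CPM in MG53-TG in the ileal enterocyte-like class. Of its ileal UMIs, 874 in WT and 1274 in MG53-TG were from cluster 16 and 37 and 25 from the distal cluster 5. The level in cluster 5, 25.8 and 28.1 CPM, was below that of enterocyte-like cluster 7, 190 and 192 CPM. Slc2a5, the fructose carrier, gave 52.5 CPM in WT against 49.3 CPM in MG53-TG enterocyte-like cells. In the ileal enterocyte-like class it stood at 168 CPM in WT (758 UMIs) against 109 CPM in MG53-TG (512 UMIs), lower past the fold with a log2 ratio of -0.62 (interval -0.78 to -0.46). It was the only sugar carrier past the fold in that class.

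Peptide and amino acid carriers made up 12 of the members. Slc15a1, the proton-driven carrier of di- and tripeptides, had 2.36 CPM in WT against 1.77 CPM in MG53-TG stem-like cells, 70.2 and 64.2 CPM in enterocyte-like cells, and 544 and 429 CPM in ileal enterocyte-like cells. Slc6a19, the main sodium-driven carrier of neutral amino acids, had 76.8 and 79.4 CPM in enterocyte-like cells and 795 and 633 CPM in the ileal class. For these, MG53-TG lay below WT in the ileal class by log2 ratios of -0.34 (interval -0.43 to -0.26) and -0.33 (interval -0.40 to -0.26), short of the fold. By cluster, Slc6a19 lay below WT in cluster 16 (659 and 500.4 CPM) but above it in cluster 5 (1087 and 1199 CPM), with log2 ratios of -0.40 (interval -0.49 to -0.31) and 0.14 (interval 0.03 to 0.25). Slc15a1 lay below WT in cluster 16 (521 and 402 CPM), while its interval in cluster 5 (593 and 546 CPM) included 0. Slc6a20a, a carrier of proline and related imino acids, gave 91.3 CPM in WT against 83.2 CPM in MG53-TG ileal enterocyte-like cells, with counting intervals that overlap.

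Slc3a1 and Slc7a9 encode the heavy and the light subunit of the brush border exchanger of cystine and dibasic amino acids. Slc3a1 had 166 CPM in WT against 173 CPM in MG53-TG ileal enterocyte-like cells, and Slc7a9 had 232 and 242 CPM. Neither moved between the libraries beyond counting error in that class or past the fold in any epithelial class. In the promoter windows of RefSeq (250 bases before to 50 bases after a start, build GRCm38.p6), 29 members had 38 windows. The HNF4 core CAAAGTCC was in the window of Slc3a1 alone, which is 2.63% of the member windows beside 1.42% of all 32851 windows. The GATA motif AGATAAG was in 1 window of Slc7a9, 2.63% beside 3.04%, and the CDX2 motif TTTATGG was in 0 member windows beside 2.75% of all windows. Motifs were searched on both strands and do not overlap each other here. The matches are shown because they fell in the genes of the same exchanger, with the match in capitals and the plus strand printed, at chr17:85028297-85028326 and chr7:35448914-35448942. In Slc7a9 the motif lies on the reverse strand, so the capitals are the reverse complement of AGATAAG. A match is a string of letters and not a bound site.
Slc3a1: ccttggctggaCAAAGTCCagccatgatta
Slc7a9: cagaagctgaaCTTATCTgattctcctat

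On the basolateral side, Slc7a7, the light subunit that exports dibasic amino acids, had 106 CPM in WT against 121 CPM in MG53-TG enterocyte-like cells. Slc7a8, the light subunit of a neutral amino acid exchanger, was higher in enterocyte-like cells (104 and 86.9 CPM) than in ileal enterocyte-like cells (85.3 and 67.2 CPM). In secretory-like cells Slc7a8 was lower past the fold in MG53-TG, at 7.14 CPM in WT (317 UMIs) against 4.20 CPM in MG53-TG (203 UMIs), with a log2 ratio of -0.77 (interval -1.03 to -0.51). T cell-like cells gave 4.50 and 1.15 CPM of Slc7a8, from 8 and 1 UMIs, and the counting intervals of the T cell-like level, 1.94 to 8.86 CPM and 0.0290 to 6.38 CPM, overlap those of the secretory-like level. Per cell, secretory-like cells had 0.120 and 0.0755 UMIs of Slc7a8 and T cell-like cells 0.0139 and 0.00437. Slc16a10, which exports aromatic amino acids, had 206 CPM in WT against 178 CPM in MG53-TG ileal enterocyte-like cells. Slc43a2, a basolateral carrier of large neutral amino acids, had 477 and 390 CPM there, a log2 ratio of -0.29 (interval -0.38 to -0.20).

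Slc1a1, the carrier of glutamate and aspartate, had its highest class level in early absorptive-like cells, at 74.8 CPM in WT against 78.9 CPM in MG53-TG, and was lower in enterocyte-like cells, at 33.3 and 30.2 CPM. The ileal enterocyte-like level was 1.78 times the enterocyte-like level in WT and 1.83 times in MG53-TG. Cluster 5 alone had 102 CPM of Slc1a1 in WT against 42.7 CPM in MG53-TG. Slc36a1, a proton-driven carrier of small amino acids, had 66.0 and 64.7 CPM in ileal enterocyte-like cells but also 41.6 and 37.8 CPM in T cell-like cells. Slc43a1, a relative of Slc43a2, had its highest class level in secretory-like cells. It had no UMI in early absorptive-like, enterocyte-like, ileal enterocyte-like or T cell-like cells of either library. Its 139 WT and 141 MG53-TG UMIs outside stem-like cells all came from secretory-like cells, where the level was 3.13 and 2.91 CPM.

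Among the organic and sulfate anion carriers, Slc16a1, which carries lactate and other monocarboxylates, was highest in stem-like cells, with 45.5 CPM in WT against 52.9 CPM in MG53-TG, and had 24.2 and 25.6 CPM in ileal enterocyte-like cells. Slc13a1, the sodium-driven sulfate carrier, reached 293 and 263 CPM in the ileal class, although it was not lower beyond counting error in MG53-TG in either cluster (689 and 679 CPM in cluster 5, 108 and 166 CPM in cluster 16) and was higher past the fold in cluster 16. Slc13a2 (chr11:78397087-78422217, minus strand), which takes up citrate and succinate, was lower past the fold in MG53-TG in both mature classes. In enterocyte-like cells it had 29.3 CPM in WT (517 UMIs) against 19.2 CPM in MG53-TG (296 UMIs), a log2 ratio of -0.61 (interval -0.82 to -0.40), and with cells thinned to equal depth the ratio (1 CPM added) was -0.0037. In ileal enterocyte-like cells it had 251 CPM (1132 UMIs) and 167 CPM (783 UMIs), a log2 ratio of -0.58 (interval -0.72 to -0.45). In cluster 5 alone it had 304 and 235 CPM, a log2 ratio of -0.37 (interval -0.62 to -0.13), short of the fold.

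The nucleoside and nucleobase carriers were split between cell types. Slc28a1 (chr7:81114799-81170416, plus strand), which carries pyrimidine nucleosides, had 13.2 CPM in WT against 14.6 CPM in MG53-TG enterocyte-like cells. In ileal enterocyte-like cells it was higher past the fold in MG53-TG, with 27.7 CPM in WT (125 UMIs) against 55.1 CPM in MG53-TG (258 UMIs), a log2 ratio of 0.99 (interval 0.68 to 1.31). Slc28a2, the purine nucleoside carrier, had 181 and 175 CPM in the ileal class and 4.47 and 1.68 CPM in enterocyte-like cells. In cluster 5, which held 782 WT and 788 MG53-TG UMIs of it, it was higher past the fold in MG53-TG, with a log2 ratio of 0.70 (interval 0.56 to 0.85), as were 795 of 7865 measured genes there. T cell-like cells had 75.3 CPM in WT against 95.1 CPM in MG53-TG of Slc28a2, more than any epithelial class but the ileal one. Slc23a4, a nucleobase carrier of the ascorbate carrier family, had 87.7 and 86.9 CPM in the ileal class and 18.1 and 16.9 CPM in stem-like cells.

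Vitamin carriers were scarce. Slc23a1, a vitamin C carrier, reached 23.0 CPM in WT against 17.9 CPM in MG53-TG in ileal enterocyte-like cells. Slc5a6, which carries biotin and pantothenate, reached 13.5 and 10.5 CPM there. Slc19a3, a thiamine carrier, had 21 WT and 24 MG53-TG UMIs over all epithelial cells and did not reach a mean of 5 CPM in any class, the level from which a gene was counted as measured.

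Of the phosphate, sodium and chloride carriers, Slc34a2 (chr5:53038081-53071664, plus strand), the sodium-driven phosphate carrier of the brush border, was highest in the ileal class, with 407 CPM in WT against 507 CPM in MG53-TG. In early absorptive-like cells it was higher past the fold in MG53-TG, with 18.2 CPM in WT (264 UMIs) against 27.5 CPM in MG53-TG (186 UMIs), a log2 ratio of 0.60 (interval 0.32 to 0.87). Of these UMIs, 236 in WT and 175 in MG53-TG came from cluster 6, whose leading gene is the ileal Fabp6, and without that cluster the log2 ratio (1 CPM added) was -0.14. In enterocyte-like cells Slc34a2 was also higher past the fold, with 7.02 CPM (124 UMIs) and 10.5 CPM (162 UMIs), a log2 ratio of 0.58 (interval 0.23 to 0.93), and with a UMI minimum of 500 the ratio (1 CPM added) turned to -0.09. By cluster it passed the fold in neither, with 10.5 and 14.6 CPM in cluster 7 and 2.77 and 2.49 CPM, under the level for a measured gene, in cluster 17. Slc9a3, the sodium and proton exchanger, had 109 CPM in WT against 115 CPM in MG53-TG enterocyte-like cells, next to 113 and 136 CPM in the ileal class, which in WT did not differ beyond counting error. Slc26a3, the chloride and bicarbonate exchanger, was higher in enterocyte-like cells (159 and 158 CPM) than in ileal enterocyte-like cells (119 and 97.1 CPM). Slc26a6, a related anion exchanger, had 467 and 438 CPM in the ileal class. Slc20a1, a phosphate carrier of most cell types, had at most 9.40 CPM in an epithelial class of WT and 50.04 CPM in WT T cell-like cells.

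Among the metal carriers, Slc39a4 was past the fold in 3 epithelial classes, more than any other member. Slc39a4 (chr15:76612383-76617384, minus strand), the zinc importer of the brush border, was lower past the fold in MG53-TG in stem-like, enterocyte-like and ileal enterocyte-like cells. Stem-like cells had 16.99 CPM in WT (424 UMIs) against 10.6 CPM in MG53-TG (155 UMIs), a log2 ratio of -0.69 (interval -0.96 to -0.42). Enterocyte-like cells had 33.0 CPM (583 UMIs) and 18.7 CPM (288 UMIs), a log2 ratio of -0.82 (interval -1.03 to -0.62). Ileal enterocyte-like cells had 98.2 CPM (443 UMIs) and 53.2 CPM (249 UMIs), a log2 ratio of -0.89 (interval -1.11 to -0.66). Early absorptive-like cells (29.8 and 21.6 CPM) and secretory-like cells (18.4 and 15.1 CPM) were on the same side, short of the fold. Taken by cluster, the interval of the ratio lay below 0 in 5 of 6 absorptive clusters.

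T cell-like cells, which should lack Slc39a4, gave 22.5 CPM in WT against 17.2 CPM in MG53-TG from only 40 and 15 UMIs, a level above that of stem-like cells. Per cell this was 0.0694 and 0.0655 UMIs, against 0.400 and 0.305 in stem-like cells and 0.641 and 0.451 in enterocyte-like cells. With the T cell-like UMIs per cell subtracted, the log2 ratio (1 CPM added) was -0.69 in stem-like, -0.84 in enterocyte-like and -0.89 in ileal enterocyte-like cells. Slc39a5, the zinc carrier of the basolateral face, was past the fold in no epithelial class, with 139 CPM in WT against 132 CPM in MG53-TG enterocyte-like cells and 89.9 and 94.8 CPM in the ileal class. Slc31a1, the copper importer, had 162 and 170 CPM in the ileal class.

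Other metal genes from a list of 10 were read beside them. The metallothioneins Mt1 and Mt2, which bind zinc and copper in the cell, were higher past the fold in MG53-TG in both mature classes. Mt1 had 2000 CPM in WT against 3181 CPM in MG53-TG enterocyte-like cells, and Mt2 had 331 and 568 CPM. In the ileal class Mt1 had 1319 and 2363 CPM and Mt2 had 162 and 346 CPM. Within that class the whole list summed to 659 CPM in WT against 698 CPM in MG53-TG in cluster 5, and to 2290 and 3491 CPM in cluster 16. The list sum was also higher in MG53-TG outside the mature classes, in stem-like (1693 and 2356 CPM) and early absorptive-like cells (1982 and 3329 CPM). In secretory-like cells it was lower (571 and 487 CPM). Of the 9 list members measured in enterocyte-like cells, 2 were higher past the fold, beside 2.06% of all genes, and 0 lower, beside 1.34%. In the ileal class 9 were measured, of which 2 were higher, beside 5.24%, and 1 was lower, beside 5.96%. The lower one was Slc30a10, an exporter of manganese, with 81.5 and 54.2 CPM. Slc30a1, the zinc exporter, had 17.2 and 23.5 CPM in enterocyte-like cells, a difference short of the fold.

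**Figure D2:**
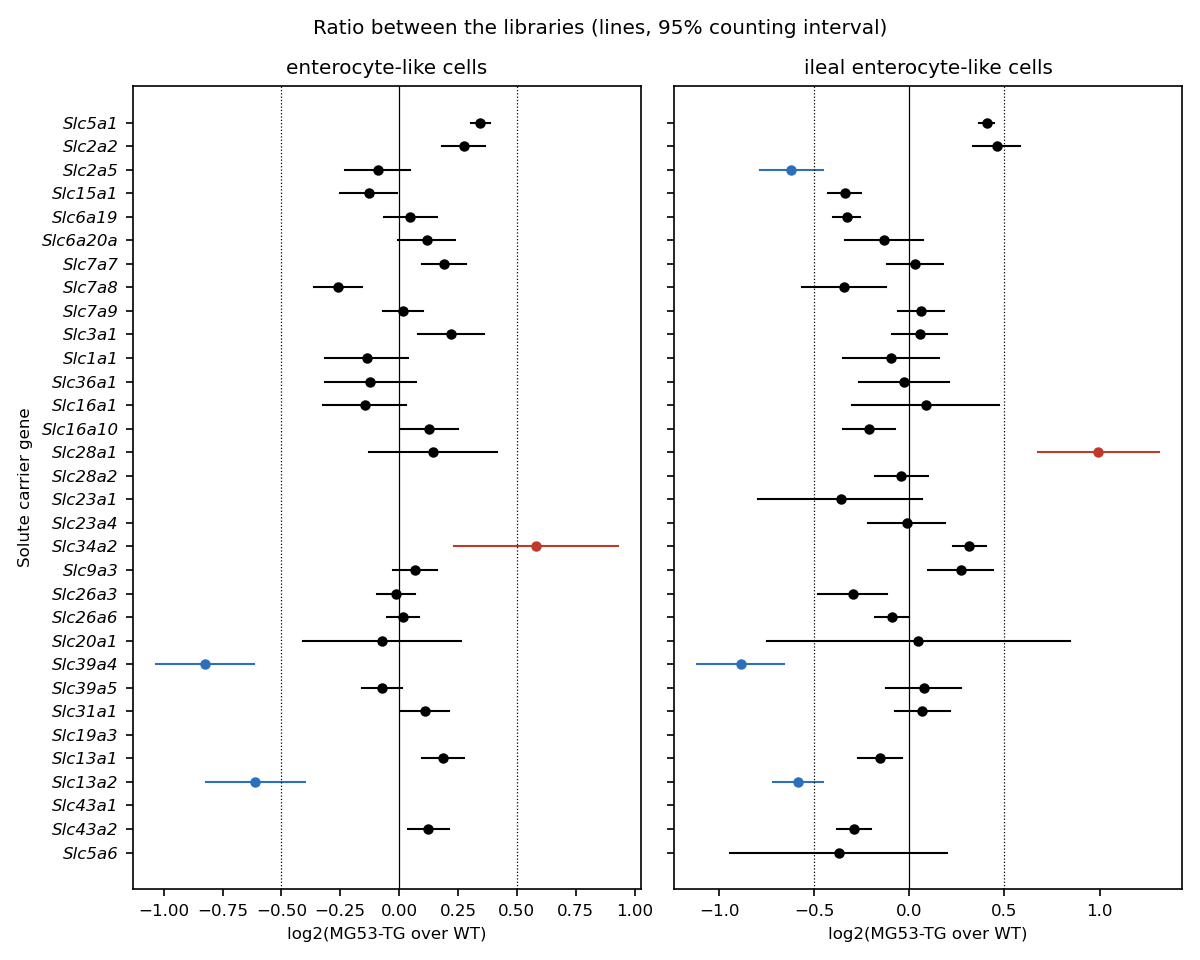
Log2 ratio of MG53-TG over WT for each measured carrier (rows) in enterocyte-like cells (left) and ileal enterocyte-like cells (right), with 95% counting intervals as lines and dotted lines at 0.5 and -0.5. Slc39a4 and Slc13a2 lie to the left of -0.5 in both panels, Slc28a1 at 0.99 in the ileal panel lies farthest to the right, and rows without a point were not measured.

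Few carriers passed the fold between the libraries, while more had a counting interval clear of 0. In enterocyte-like cells 26 members were measured, and their median log2 ratio (1 CPM added) was 0.03, beside 0.06 over all 8108 measured genes. Of these members, 1 was higher past the fold (Slc34a2), where 2.06% of all measured genes were, and 2 were lower (Slc39a4 and Slc13a2), where 1.34% were. The interval lay above 0 for 9 of the 26, beside 26.6% of all genes, and below 0 for 4, beside 10.5%. Within the clusters of this class the median was -0.04 over 27 members in cluster 7 and -0.09 over 23 in cluster 17, beside 0.07 over all genes in each, and 0 carriers were higher past the fold and 2 lower in each. Of all measured genes, 211 of 7981 were higher and 140 lower in cluster 7. In cluster 17, 316 of 8135 were higher and 158 lower. Slc2a2, for one, had an interval above 0 in the class but had 190 and 192 CPM in cluster 7. In the ileal class 30 members were measured with a median of -0.07 beside 0.01 over all genes. There 1 was higher (Slc28a1) beside 5.24% of all genes, and 3 were lower (Slc39a4, Slc13a2 and Slc2a5) beside 5.96%. The interval lay above 0 for 5 of the 30, beside 15% of all genes, and below 0 for 11, beside 11.5%. These ileal calls depend on the clusters. When each cell was instead given to the class with the most marker UMIs, the ileal class shrank to 71 WT and 17 MG53-TG cells and the log2 ratios (1 CPM added) turned to 0.47 for Slc39a4, 0.72 for Slc13a2, 0.33 for Slc2a5 and -2.49 for Slc28a1. In early absorptive-like cells 1 of 25 was higher beside 3.16%, and 0 were lower beside 1.45%. In stem-like cells 0 of 21 were higher beside 0.917%, and 1 was lower beside 0.641%. In secretory-like cells 0 of 19 were higher beside 2.76%, and 1 was lower beside 1.25%.

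Over the sum of all epithelial classes 28 members were measured, with a median of -0.04 beside 0.08 over all 9203 measured genes. Slc28a1 was higher past the fold (4.27 and 6.48 CPM), where 4.19% of all genes were, and Slc39a4 was lower (25.5 and 17.5 CPM), where 0.761% were. The Slc28a1 call held in 8 of 15 alternatives, and its log2 ratio (1 CPM added) was 0.18 with cells thinned to equal depth. Of the 28, 11 had an interval above 0, beside 49.9% of all genes, and 12 below 0, beside 19.3%. In that sum, fewer cells of a type and less RNA per cell cannot be told apart, and the libraries differ in the number of cells per class. The 358 other solute carriers had a median of 0.10 over 157 measured genes. A list of 10 carriers of growing cells, with 9 measured, had a median of 0.43, and 1 of the 9 was higher past the fold.

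Levels were also read along a score made from upper villus genes minus lower villus genes, without solute carriers, in 5 bins of equal cell number over the absorptive classes. Of the 32 members, 20 were highest in the uppermost bin in both libraries, and 16 were higher at every step in both, beside 32.7% and 11.4% of 8439 genes at a mean of 5 CPM or more over the bins. From bin 1 to bin 5, Slc5a1 went from 97.1 to 1935 CPM in WT and from 122 to 2522 CPM in MG53-TG. Slc15a1 went from 5.30 to 608 CPM and from 3.93 to 489 CPM, and Slc6a19 from 10.1 to 939 CPM and from 14.99 to 771 CPM. Slc28a2 was at 19.3 CPM in WT against 3.54 CPM in MG53-TG in bin 4 and at 266 and 288 CPM in bin 5. The median depth of a cell fell from 18804 UMIs in bin 1 to 4020 in bin 5 in WT and from 23539 to 5852 in MG53-TG, and bin 5 was 90.3% and 91.6% ileal enterocyte-like. The steps are in CPM, and a rise in CPM need not be a rise per cell. In WT, Slc7a9, one of the 16, had 1242 UMIs from the 468 cells of bin 3 and 587 from the 444 of bin 5. Slc6a19 had 799 and 2540 UMIs in the same bins.

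A smaller set peaked lower. Slc6a20a, Slc7a7, Slc7a8, Slc26a3, Slc39a5 and Slc20a1, with the scarce Slc19a3, were highest in bins 2 to 4 in both libraries, as were 12.8% of those genes. Slc26a3 went from 86.8 CPM in bin 1 to 170 CPM in bin 4 and back to 90.2 CPM in bin 5 in WT, and from 109 to 158 and 88.1 CPM in MG53-TG. Slc1a1 and Slc16a1 were highest in bin 1, as were 28.2%. Slc39a4 was lower in MG53-TG in each of the 5 bins with an interval below 0, from 24.8 CPM in WT against 18.6 CPM in MG53-TG in bin 1 to 119 and 64.0 CPM in bin 5.

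**Figure D3:**
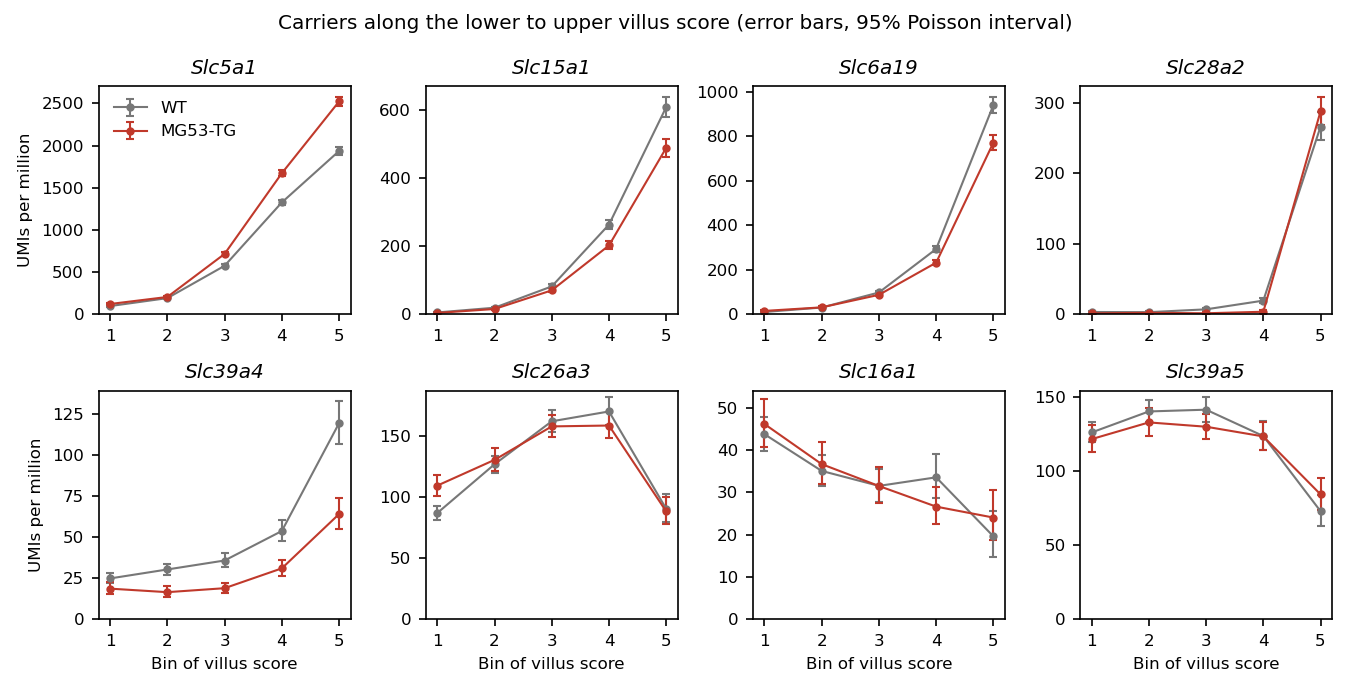
Level in CPM (y axis) of 8 carriers over 5 bins of the villus score (x axis, 1 lowest) in WT (gray) and MG53-TG (red), with 95% Poisson intervals. Slc5a1, Slc15a1 and Slc6a19 climb to bin 5, Slc28a2 appears in bin 5, Slc26a3 and Slc39a5 turn down before it, Slc16a1 is highest in bin 1, and Slc39a4 is lower in MG53-TG throughout.

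The ileal enterocyte-like clusters used different carriers. In cluster 5, 9 members were higher than in cluster 16 in both libraries with an interval above 1, beside 17.9% of genes at a mean of 5 CPM or more over both clusters, and 12 were lower, beside 17.5%. Slc28a2 had 545 CPM in WT against 885 CPM in MG53-TG in cluster 5, and 10.7 and 8.96 CPM in cluster 16. Slc23a4 had 224 and 420 CPM against 24.4 and 8.70 CPM, and Slc13a1 had 689 and 679 CPM against 108 and 166 CPM. Slc2a2 ran the other way, with 25.8 and 28.1 CPM in cluster 5 and 284 and 336 CPM in cluster 16, as did Slc7a8 with 16.7 and 18.0 CPM against 117 and 78.8 CPM. Slc28a1 had 5.57 and 13.5 CPM in cluster 5 and 38.0 and 64.8 CPM in cluster 16, so that the pyrimidine and the purine nucleoside carrier were high in different clusters. Cluster 5 held 335 WT and 167 MG53-TG cells, whose median depth was 3362 and 4517 UMIs, and cluster 16 held 353 and 298 cells with 5365 and 10006 UMIs.

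**Figure D4:**
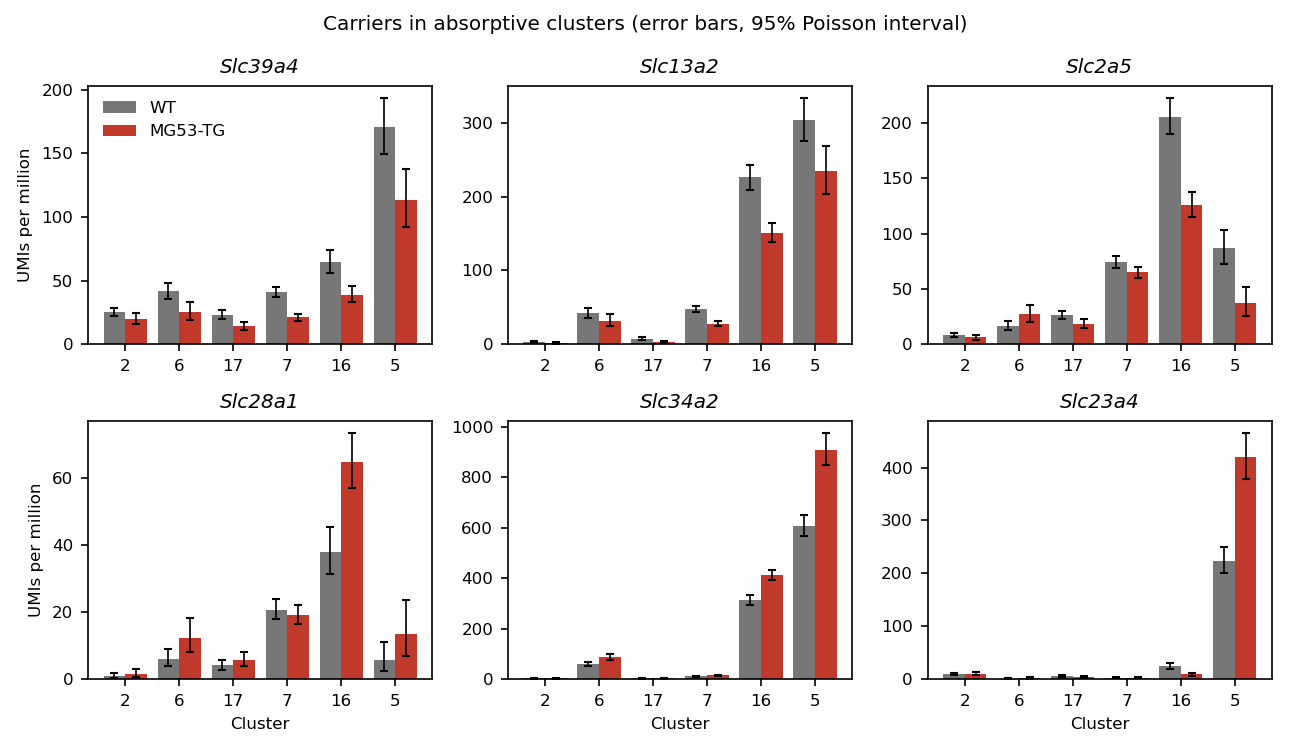
Level in CPM (y axis, bars from 0) of 6 carriers in 6 absorptive clusters (x axis) in WT (gray) and MG53-TG (red), with 95% Poisson intervals. Slc39a4 is lower in MG53-TG in every cluster shown, with an interval of the ratio that includes 0 in cluster 2, and Slc23a4 is higher in MG53-TG in cluster 5 and lower in cluster 16.

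Outside the absorptive lineage, several carriers were highest in enteroendocrine-like cells among the secretory types. These hormone cells (286 in WT and 182 in MG53-TG) are known to sense nutrients in the lumen. Of the 32 members, 9 were higher there than in each of secretory progenitor-like, goblet-like, Paneth-like and tuft-like cells in both libraries, with every interval of the ratio above 1. They were Slc5a1, Slc2a5, Slc15a1, Slc6a19, Slc3a1, Slc36a1, Slc16a10, Slc39a4 and Slc13a1. Cluster 9, with 128 WT and 66 MG53-TG cells of this type, also counted 3 of the 14 ileal enterocyte markers. The share of enterocyte RNA in these levels was not tested. Of 9852 genes at a mean of 5 CPM or more over the 5 secretory types, 16.7% met the same condition, and 21 of the members had that mean. Slc6a19 had 170 CPM in WT (interval 153 to 188) against 143 CPM in MG53-TG (interval 127 to 160), and 12.4 and 9.65 CPM in goblet-like cells. Slc5a1 had 130 and 139 CPM against 30.8 and 36.3 CPM, and Slc15a1 had 85.5 and 69.5 CPM against 5.68 and 5.16 CPM. Slc36a1 had 88.2 and 60.3 CPM against 14.2 and 15.4 CPM. Median depth was 7152 and 9937 UMIs in these cells and 2824 and 3562 UMIs in T cell-like cells, where Slc6a19 gave 13.5 and 9.17 CPM and Slc15a1 3.94 and 2.29 CPM. The margin was smaller for Slc5a1 (23.6 and 35.5 CPM in T cell-like cells), Slc36a1 (41.6 and 37.8 CPM) and Slc39a4 (22.5 and 17.2 CPM, beside 32.6 and 29.9 CPM in enteroendocrine-like cells). For Slc39a4 in both libraries and for Slc36a1 in MG53-TG the counting intervals of the 2 cell types overlapped.

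**Figure D5:**
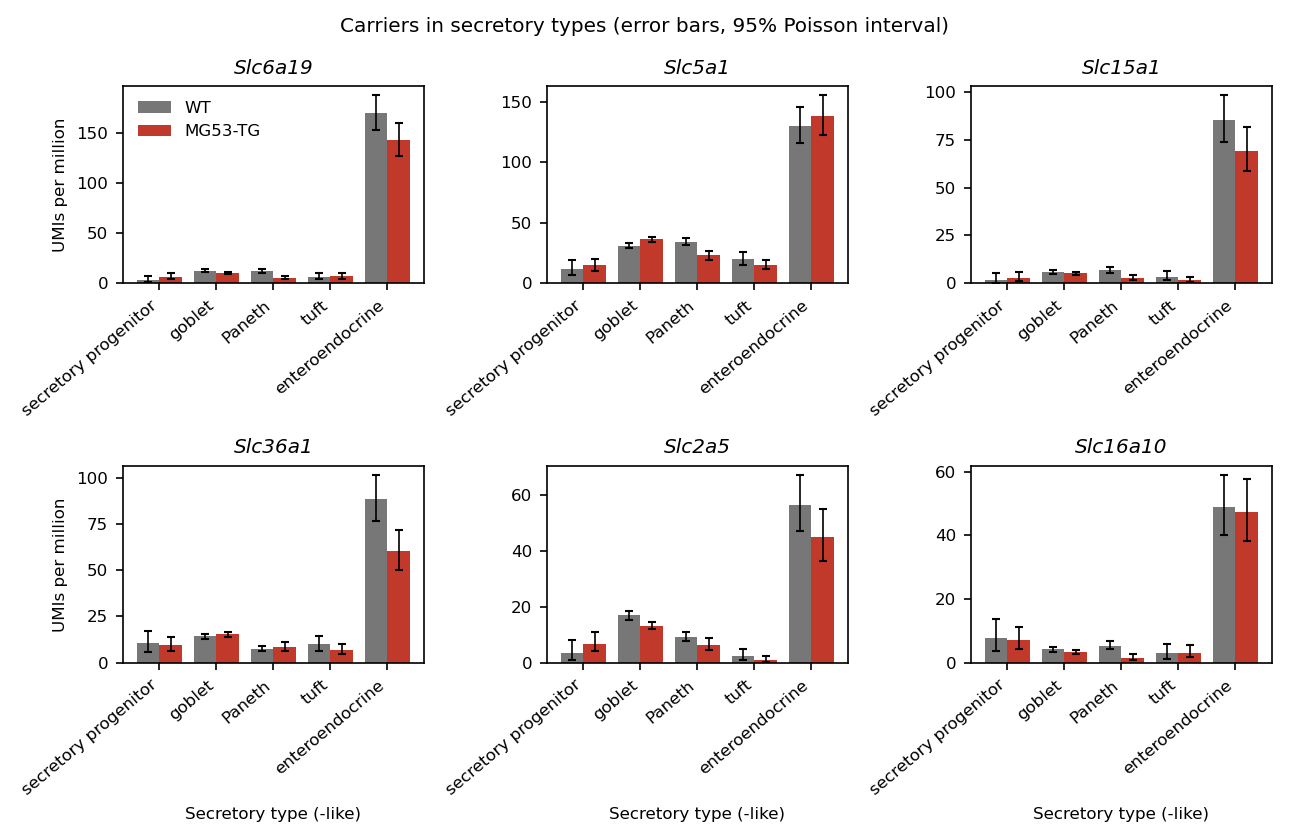
Level in CPM (y axis, bars from 0) of 6 carriers in 5 secretory types (x axis) in WT (gray) and MG53-TG (red), with 95% Poisson intervals. Enteroendocrine-like cells have the highest bar for each of the 6 carriers, which were picked after their values were seen, in both libraries.

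Free RNA was present in the droplets. In WT barcodes with under 100 UMIs, which were not among those of the MG53-TG table, Slc5a1 made up 424 CPM and Slc6a19 181 CPM. Over the 32 members, 23 were higher in enterocyte-like than in T cell-like cells in both libraries with an interval above 1, beside 24.1% of all genes at a mean of 5 CPM over both, and Slc28a2 and Slc20a1 were lower, beside 46.7%. In secretory-like cells 8 members exceeded the T cell-like level in that way, beside 20.9% of such genes, and 3 (Slc36a1, Slc28a2 and Slc20a1) were lower, beside 42.5%. The secretory-like values of the others, among them Slc7a8, Slc39a4 and Slc43a1, are levels in CPM that were not above the T cell-like level beyond counting error in both libraries.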

How the data were processed

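The authors deposited unscaled counts of UMIs per gene and barcode for both libraries, aligned to mm10, with Cell Ranger 4 (WT) and 6.0.1 (MG53-TG) named in the files. The WT table keeps empty droplets and the MG53-TG table starts at 500 UMIs, so program version and barcode filtering coincide with genotype. How reads that map to several genes were treated is not given in the sources used here.

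Doublets were scored with Scrublet per library (scanpy 1.11.5). Its automatic threshold marked 1 and 2 cells, so the highest scores were removed at 0.8% per 1000 cells, 438 in WT and 212 in MG53-TG. Cells of both libraries were clustered on 2000 variable genes, 30 components and 15 neighbours (Leiden, resolution 1, seed 0), giving 25 clusters, without integration. A marker counted at 10% of cells and 1.5 times the other cells, with 3 needed. The lists were tried in order of the share of markers counted, and the first whose class was not outnumbered among the top 10 genes gave the name. That order was set after clusters were seen.

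UMIs were summed per class and library and scaled to CPM. A gene was measured at a mean of 5 CPM or more and past the fold at an absolute log2 ratio of 0.5 with 1 CPM added, while the printed ratios beside an interval have none added. Intervals are exact Poisson for levels, exact conditional binomial for ratios, and cover counting error only. The code was checked on simulated counts. All 32 members are named, and other genes come from listed sets. A list of genes that work with the carriers is not reported here. The members and lists were chosen with earlier results of these data known. Coordinates are those of GENCODE vM21 (GRCm38). The alternatives tried were other filters, scalings, pseudocounts, clusterings and cell calls.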

Additional observations from a re-analysis of the deposited data

Results flagged for a closer look

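A few carriers had log2 ratios of MG53-TG over WT (1 CPM added) that pointed in opposite directions in different absorptive clusters or classes. With 1 library per group these differences were not tested. Slc2a5 was lower in the ileal enterocyte-like class (-0.62), in cluster 5 (-1.21) and in cluster 16 (-0.70), and higher in cluster 6 (0.68), from 67 WT and 55 MG53-TG UMIs in the last. Slc1a1 was lower in cluster 5 (-1.24) and higher in cluster 16 (0.57). Slc23a4 was higher in cluster 5 (0.91) and lower in cluster 16 (-1.39), where WT had 75 and MG53-TG 33 UMIs. Beside these, the distal gene list summed to 16286 CPM in WT against 12906 CPM in MG53-TG in cluster 5, and the part of that difference in the ratios was not tested.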

How the results depend on the processing

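The median ratio over all epithelial classes and in enterocyte-like cells, the counts past the fold in enterocyte-like cells and 12 log2 ratios of single carriers were computed again under up to 16 other settings, with 3 more chosen after seeing the data (early absorptive-like cells without cluster 6, and clusters 5 and 16 alone). Not every setting gives a value for every ratio (15 to 18 each), and levels by cluster, villus bin and secretory type were not computed again. All log2 ratios here have 1 CPM added unless a setting changes it. A median was set against the averaged counting intervals of the 2 carriers in the middle of the order, which is not an interval of the median itself. In enterocyte-like cells the median over the measured carriers stayed within that range under every alternative. Over all epithelial classes the median went from -0.04 to 0.20 with a mitochondrial limit of 50%, -0.15 with 10%, -0.13 with median of ratios scaling, -0.19 with means of single-cell CPM and -0.21 with thinned cells. The villus score alternative gives no value for that sum. In enterocyte-like cells the count of carriers higher past the fold went from 1 to 0 with a UMI minimum of 500, a 50% limit, marker UMIs without clusters, median of ratios, 5 CPM added, a 20 CPM filter, thinned cells or villus score bins, and to 2 with single-cell means or no filter. The count lower went from 2 to 1 with a 10% limit, doublets kept, resolution 2 or thinned cells, and was 3 with a UMI minimum of 500, villus score bins or no filter. Of 197 ratios of single carriers, 7 changed sign. Slc34a2 turned to -0.086 in enterocyte-like cells with a UMI minimum of 500, and in early absorptive-like cells to -0.13 with marker UMIs and -0.14 without cluster 6. The marker UMI alternative also turned Slc39a4 (0.47), Slc13a2 (0.72), Slc2a5 (0.33) and Slc28a1 (-2.49) in the ileal class. Slc39a4 in enterocyte-like cells stayed past the fold in 16 of 16, between -1.16 and -0.68. In stem-like cells it stayed past it in 12 of 15, between -1.17 and -0.42, and Slc7a8 in secretory-like cells in 12 of 15, between -0.86 and -0.40. Slc28a1 over all epithelial classes stayed past it in 8 of 15. With cluster 5 alone, Slc13a2 in the ileal class was -0.37. The cause of these shifts was not tested. No paired analysis was possible because each group had 1 library. Slc19a3 rests on 21 and 24 epithelial UMIs, and no ratio is given for it.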
